A study of Mus musculus with 6 samples.

Results

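Sphingolipid and ceramide metabolism was followed through 32 genes in the livers of obese mice, 3 with nonalcoholic steatohepatitis (NASH) and 3 with isolated steatosis. The members were given as a list of enzymes and regulators and were found by gene symbol among the 39179 Ensembl genes of each count file. Each of the 32 symbols matched 1 row. All mice were C57BL/6J and had been fed a diet with 60% of its energy as fat, which began at 5 weeks of age and lasted 21 weeks. The groups are histological classes of mice on that shared diet: liver biopsies stained with haematoxylin and eosin were read either as fat storage alone (steatosis) or as NASH, in which inflammation and cell injury join the fat. No lean liver was analysed here, and the mice's sex is not stated. The labels do not say in words that each library came from its own mouse, so the p-values measure the spread between these libraries.

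Ceramide is the hub of this pathway. It is built on the endoplasmic reticulum from serine and palmitoyl-CoA, and ceramide synthases then attach a fatty acyl chain whose length depends on the synthase. From ceramide, cells make sphingomyelin, glucosylceramide and ceramide 1-phosphate, and ceramidases cut it to sphingosine, which kinases convert to the signalling lipid sphingosine 1-phosphate. In liver, ceramides that carry palmitate have been linked to insulin resistance and fat storage, whereas those with very long chains are the abundant form.

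The libraries held between 13909238 and 18002095 gene counts. Mitochondrially encoded transcripts and 4 loci with rRNA-like sequence took most of these. The rRNA-like loci set NASH 3 (22.3% of counts) and steatosis 2 (8.96%) apart from the others (0.60% to 1.06%). Genes outside these classes kept 21.3% to 28.6% of the counts in steatosis and 15.5% to 17.2% in NASH, ranges that did not overlap. The members therefore rest on modest depth, and this difference between the groups goes with every comparison below. Its part in the results was not tested. Fits that left out these classes, or scaled to the counts outside them, are given with the alternatives at the end, and they differed in the members called. The hepatocyte gene Alb held 6896 to 7247 CPM in steatosis and 4311 to 6412 CPM in NASH, without overlap (log2 fold change -0.40, adjusted p = 0.445). CPM are counts relative to a common library size, scaled by edgeR's TMM method. The 10 hepatocyte markers summed to between 10464 and 12604 CPM in steatosis and between 8901 and 11637 CPM in NASH. Of these, 3 (Alb, Ttr and Asgr1) were lower in every NASH liver than in any steatosis liver and 1 (Apoa1) was higher. Over all tested genes the shares that separated in this way were 16.2% and 13.1%. By edgeR 0 of the 10 passed and 1 had an unadjusted p under 0.05, Asgr1 (log2 fold change -0.80, adjusted p = 0.0573), which DESeq2 and limma-voom called. Sums of the 10 sinusoidal endothelial markers were 75.4 to 100.2 CPM in steatosis and 108 to 152 CPM in NASH. For the 10 stellate and fibroblast markers they were 64.0 to 78.3 and 43.3 to 59.5 CPM. The sums of both of these lists separated the groups, in opposite directions. Single genes of the stellate list were mixed: of 9 tested, 6 had estimates below 0 and 3 above (log2 fold change -1.03 to 1.05). Of these 9, 1 was lower in every NASH liver than in any steatosis liver and 1 was higher. By edgeR's test 0 of the 10 endothelial markers passed, and DESeq2 and limma-voom called 1 and 0. At an unadjusted p under 0.05 there were 4 (40.0%, against 23.2% of all tested genes). Of 9 tested stellate markers 1 passed by edgeR's test, Dcn (log2 fold change -1.03, SE 0.23, adjusted p = 0.0349). Dcn did not pass in the 6 edgeR fits with 1 library left out (adjusted p = 0.0585 to 0.115). Those fits called 114 to 468 genes in all, against 548 with all libraries. The Kupffer and macrophage, cholangiocyte and lymphocyte lists overlapped between the groups. In bulk tissue, fewer cells of a type and less RNA per cell cannot be told apart. Whether these shifts in cell markers contribute to the values of any member was not tested.

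Few sphingolipid genes passed the test between NASH and steatosis in these libraries. Of the 32 members 27 passed the filter on low counts, 2 of these were lower in NASH and 0 were higher by edgeR's quasi-likelihood test at an adjusted p under 0.05. The 2 were Kdsr, of ceramide synthesis, and Sgpp1, which dephosphorylates sphingosine 1-phosphate. That is 7.41% of the tested members, where 4.82% of all 11375 tested genes were called, 3.33% as lower and 1.49% as higher. The share is near the background, and the median log2 fold change of the tested members, -0.04, was close to the 0.01 of all genes. At an unadjusted p under 0.05 there were 5 members (18.5%, against 23.2% of all genes): Kdsr, Sgpp1, Cers6 and Ormdl1 with lower values in NASH and Smpd4 with higher ones. DESeq2 called the same pair, Kdsr and Sgpp1, and limma-voom called Sgpp1, and neither called a member higher. For 5 tested members, Kdsr, Sgpp1, Cers6, Ormdl1 and Ormdl3, every NASH liver lay below every steatosis liver (18.5%, against 16.2% of all genes), and for 0 tested members every NASH liver lay above (13.1% of all genes). In the 4 libraries with few rRNA-like reads, a fit with 36 calls in all, 0 members were called, and the estimates were -1.14 for Kdsr and -1.03 for Sgpp1. Of the log2 fold changes in all 6 libraries, 17 of the 27 had a 95% interval that stayed inside a 2-fold change in either direction, and for the other 10 a change of that size was not excluded.

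**Figure D1:**
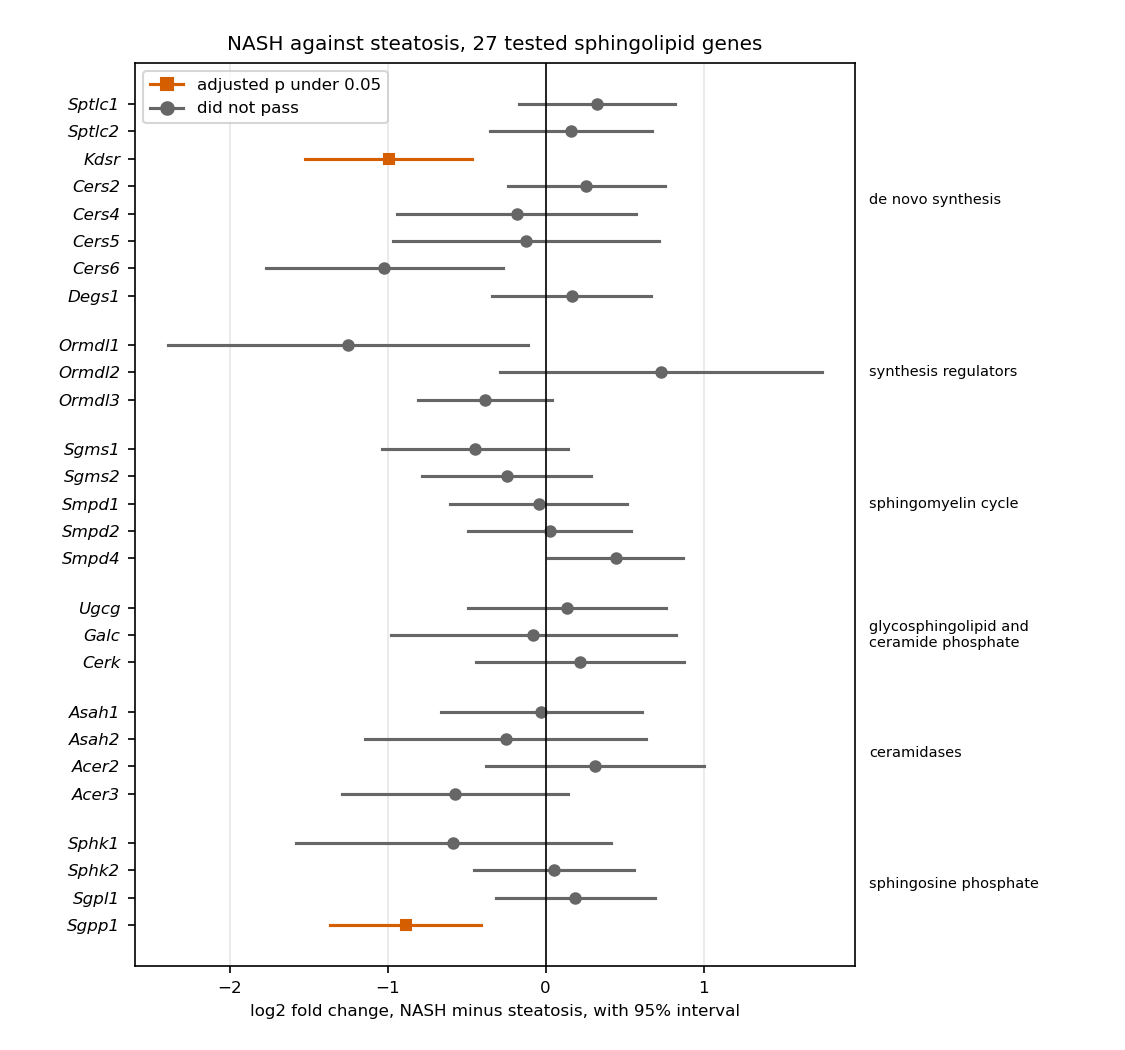
The log2 fold change of NASH minus steatosis (horizontal axis) is shown for the 27 tested members (vertical axis), grouped by step, with the 95% interval of each as a line. Orange squares mark Kdsr and Sgpp1, which passed at an adjusted p under 0.05, and grey circles the 25 that did not.

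Levels of the members spanned a wide range. To compare genes, CPM were divided by the exon length in kilobases. Cers2 stood far above the rest with 24.5 in steatosis and 29.3 CPM per kb in NASH. It was followed by Ormdl3 (6.85 and 5.23), Smpd2 (5.14 and 5.24), Sphk2 (4.16 and 4.30), Sgpl1 (2.34 and 2.66) and Sgpp1 (2.66 and 1.44 CPM per kb). All other tested members had means below 2 CPM per kb in both groups, with Degs1 the highest (1.67 and 1.88). The exon length joins the exons of all annotated transcripts, so the level of a gene with long rare exons is understated.

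**Figure D2:**
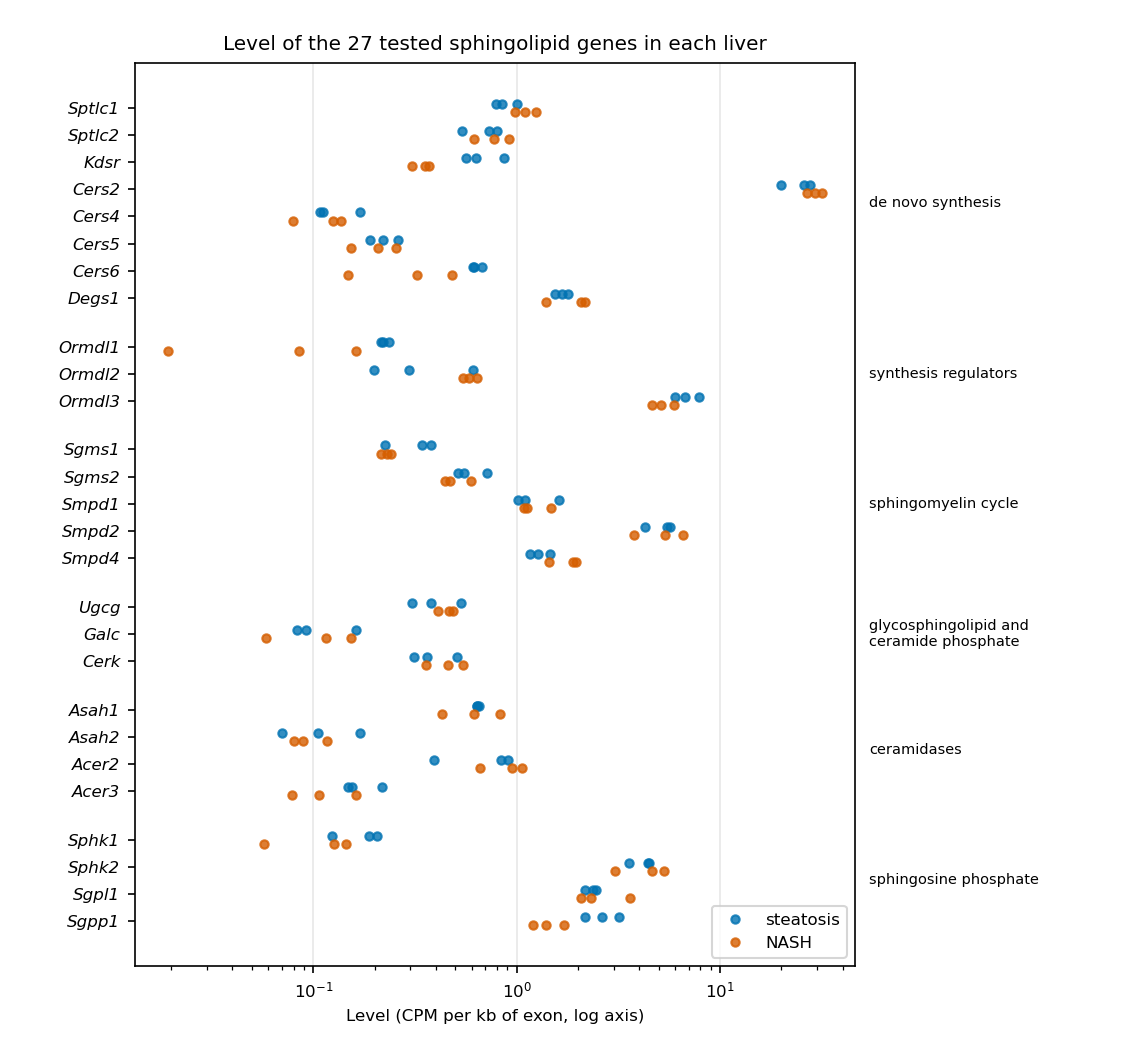
Each point is 1 liver, with the level in CPM per kb of exon on a logarithmic horizontal axis and the 27 tested members on the vertical axis, blue for steatosis and orange for NASH. Cers2 stands apart at about 19.8 to 31.8 CPM per kb, and the NASH points of Kdsr, Sgpp1, Cers6, Ormdl1 and Ormdl3 lie to the left of their steatosis points.

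The promoters of the called members Kdsr and Sgpp1 and of Cers6, the ceramide synthase gene with the largest fold change, are shown because these 3 genes had the clearest lower levels in NASH among members with ample counts. Each is the 250 bases before the RefSeq transcription start on GRCm38.p6, written along the gene's own strand. Capitals mark matches to 5 short motifs searched on both strands: TATAAA of the classical core promoter, CCAAT bound by nuclear factor Y, GGGCGG bound by Sp1 (the GC box), CACGTG bound by basic helix-loop-helix factors (an E-box), and AGGTCA bound by nuclear receptors.
Kdsr: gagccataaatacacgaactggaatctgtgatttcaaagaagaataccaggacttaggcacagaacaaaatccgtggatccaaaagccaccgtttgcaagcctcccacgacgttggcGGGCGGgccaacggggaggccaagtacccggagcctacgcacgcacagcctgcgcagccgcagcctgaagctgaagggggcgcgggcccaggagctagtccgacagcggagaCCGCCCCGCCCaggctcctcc
Sgpp1: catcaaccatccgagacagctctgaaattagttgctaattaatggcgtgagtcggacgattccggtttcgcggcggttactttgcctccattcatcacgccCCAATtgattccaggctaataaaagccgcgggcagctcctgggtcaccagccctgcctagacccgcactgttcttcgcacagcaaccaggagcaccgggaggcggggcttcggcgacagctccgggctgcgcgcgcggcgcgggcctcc
Cers6: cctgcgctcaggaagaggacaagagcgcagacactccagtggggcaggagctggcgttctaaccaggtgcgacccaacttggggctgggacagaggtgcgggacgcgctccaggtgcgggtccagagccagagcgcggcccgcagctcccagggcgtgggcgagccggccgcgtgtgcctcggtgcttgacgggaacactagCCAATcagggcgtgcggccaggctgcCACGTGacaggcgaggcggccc
They lie at chr1:106759743-106759992 on the minus strand for Kdsr, at chr12:75735730-75735979 on the minus strand for Sgpp1, and at chr2:68861191-68861440 on the plus strand for Cers6. The Kdsr promoter holds 3 GC boxes, of which 2 overlap in the run in capitals nearest the start. Sgpp1 and Cers6 each hold 1 CCAAT, and Cers6 also holds 1 E-box that lies 22 bases before the start. Over all 32851 promoters of the same length, 32.7% hold the GC box, 33.8% hold CCAAT, 6.02% this E-box, 14.0% the nuclear receptor motif and 12.4% TATAAA. None of the 5 motifs was present in all 3 promoters. A match describes these letters and is not a binding site, and no measurement of binding was analysed here.

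Synthesis starts with serine palmitoyltransferase, a complex whose subunits are encoded by Sptlc1 and by Sptlc2 or Sptlc3. Sptlc1 held 3.01, 2.81 and 3.56 CPM in steatosis 1 to 3 and 4.44, 3.48 and 3.90 CPM in NASH 1 to 3, with ranges that overlapped slightly. Its log2 fold change was 0.32 (95% interval -0.17 to 0.82, adjusted p = 0.424). For Sptlc2 the levels ran from 4.37 to 6.46 CPM in steatosis and from 5.02 to 7.44 CPM in NASH (log2 fold change 0.16, 95% interval -0.35 to 0.67). Per length the 2 subunit genes were close, at 0.880 and 0.688 CPM per kb in steatosis. Sptlc3, the alternative subunit that allows shorter bases, was nearly unread, with 9 counts summed over steatosis and 1 over NASH. After scaling to library size this is a ratio of NASH over steatosis of 0.165 (exact 95% counting interval 0.00376 to 1.19), which includes no change.

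Kdsr encodes 3-ketodihydrosphingosine reductase, which carries out the next step. The gene (ENSMUSG00000009905) lies on chromosome 1 from 106720459 to 106759727 of GRCm38. It held 7.08, 4.61 and 5.11 CPM in steatosis 1 to 3 and 2.50, 3.01 and 2.90 CPM in NASH 1 to 3. Every NASH liver lay below every steatosis liver, and the NASH values were tightly grouped. The mean fell from 5.60 ± 1.30 to 2.80 ± 0.269 CPM (SD, n = 3 each), a log2 fold change of -0.99 (SE 0.24, 95% interval -1.52 to -0.46, edgeR adjusted p = 0.0454). The counts behind this were 330 over steatosis and 113 over NASH. Kdsr shares no exon position with another annotated gene. The call stood just inside the threshold and did not survive the removal of any single library. Over all genes these 6 fits called 114 to 468, against 548 in the main fit. Leaving out steatosis 1, 2 or 3 gave an adjusted p of 0.153, 0.0807 or 0.0647, and leaving out NASH 1, 2 or 3 gave 0.121, 0.0975 or 0.0913, with a log2 fold change between -1.11 and -0.78.

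The ceramide synthases set the acyl chain. Cers2, which makes ceramides with very long chains and is the main liver form, held 72.9, 95.5 and 102 CPM in steatosis 1 to 3 and 117, 107 and 98.7 CPM in NASH 1 to 3. The ranges overlapped, with the lowest value in steatosis 1 (log2 fold change 0.26, 95% interval -0.24 to 0.75, adjusted p = 0.533). Cers6 (ENSMUSG00000027035, chromosome 2, 68861441 to 69114282, GRCm38), which prefers palmitoyl-CoA and makes ceramide with a 16-carbon chain, held 5.48, 5.39 and 6.00 CPM in steatosis and 1.32, 2.88 and 4.26 CPM in NASH. All 3 NASH livers lay below the narrow steatosis range, but they differed among themselves, and NASH 1 was the lowest. Its log2 fold change of -1.02 (SE 0.34, 95% interval -1.77 to -0.27) did not pass over all genes (edgeR adjusted p = 0.105). Over the alternatives the adjusted p of Cers6 ran from 0.0033 without a filter on low counts to 0.236 without steatosis 1. The estimate was -0.67 without NASH 1 and -1.41 without NASH 3.

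As a share of all counts on ceramide synthase genes, Cers6 took 6.75% in steatosis 1 (95% Wilson interval 5.52 to 8.24), 5.23% in steatosis 2 (4.28 to 6.39) and 5.46% in steatosis 3 (4.70 to 6.33). In NASH 1 to 3 the share was 1.10% (0.704 to 1.71), 2.56% (1.90 to 3.43) and 4.06% (3.07 to 5.36). The groups did not overlap, although the counting interval of NASH 3 overlapped those of steatosis 2 and 3. The share does not depend on how libraries are scaled. It was formed after the values of both genes had been seen and is given with no test. Per length, Cers2 made up 95.3% to 96.5% of the summed ceramide synthase level in steatosis and 97.2% to 98.5% in NASH. Cers4, which also makes long-chain species, held 1.59 ± 0.433 and 1.39 ± 0.372 CPM, and Cers5, a second palmitoyl-preferring synthase, 0.794 ± 0.126 and 0.727 ± 0.179 CPM in steatosis and NASH (SD, n = 3 each). Neither passed the test (adjusted p = 0.796 and 0.882). Cers1, known from brain and muscle, had 0 counts in all 6 libraries. Of its exon length 42.5% is shared on the same strand with Gdf1, a gene that was not counted, and the effect of this was not tested. A count of 0 allows up to 3 counts, or 0.111 to 0.272 CPM depending on the library, which covers counting error only.

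**Figure D3:**
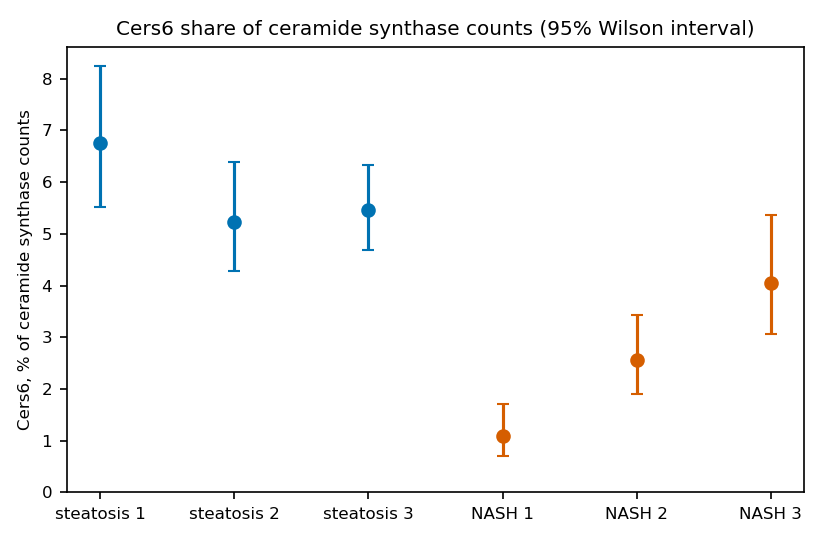
Cers6 counts as a percentage of the counts on all ceramide synthase genes (vertical axis) are plotted for each of the 6 libraries (horizontal axis), with 95% Wilson intervals for counting error. Steatosis livers lie between 5.23% and 6.75% and NASH livers between 1.10% and 4.06%.

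Dihydroceramide desaturases finish ceramide. Degs1, the main desaturase, held 4.61, 4.01 and 4.34 CPM in steatosis and 3.61, 5.35 and 5.62 CPM in NASH, with NASH livers on both sides of the steatosis range. Its log2 fold change was 0.17 (95% interval -0.34 to 0.67). Degs2, which can also add a hydroxyl group, had 7 counts over steatosis and 2 over NASH, a scaled ratio of 0.424 with an exact 95% counting interval of 0.0430 to 2.23. Of the 11 synthesis members, 8 were tested, 1 was lower and 0 higher, with a median log2 fold change of 0.02.

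The ORMDL proteins sit on serine palmitoyltransferase and restrain it when ceramide is plentiful. Ormdl3 was the main form, with 17.2, 13.05 and 14.6 CPM in steatosis and 12.98, 11.2 and 10.1 CPM in NASH. The groups were separated only by the small gap between steatosis 2 and NASH 1, and the log2 fold change of -0.39 did not pass (95% interval -0.81 to 0.04, adjusted p = 0.256). Ormdl1 held 1.108, 1.018 and 1.038 CPM in steatosis against 0.764, 0.401 and 0.0907 CPM in NASH. This rests on 63 and 18 summed counts, of which NASH 3 gave 1, and the log2 fold change of -1.25 did not pass (SE 0.51, adjusted p = 0.178). It was -1.96 without NASH 1 and -0.84 without NASH 3. For Ormdl2 the steatosis values of 0.492, 1.018 and 0.334 CPM spanned those of NASH 1, at 0.972 CPM, and NASH 3, at 0.907 CPM, while NASH 2 held 1.07 CPM (log2 fold change 0.73, SE 0.46, adjusted p = 0.377). Of its exon length, 66.7% overlaps Dnajc14 on the opposite strand. Because the strand setting is not given, how reads over the shared positions were counted is not known. So 2 of the 3 regulators had estimates below 0 and 1 above. By edgeR 0 of the 3 passed, 1 (Ormdl1) had an unadjusted p under 0.05, and DESeq2, which gave no adjusted p for Ormdl1, and limma-voom called 0.

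**Figure D4:**
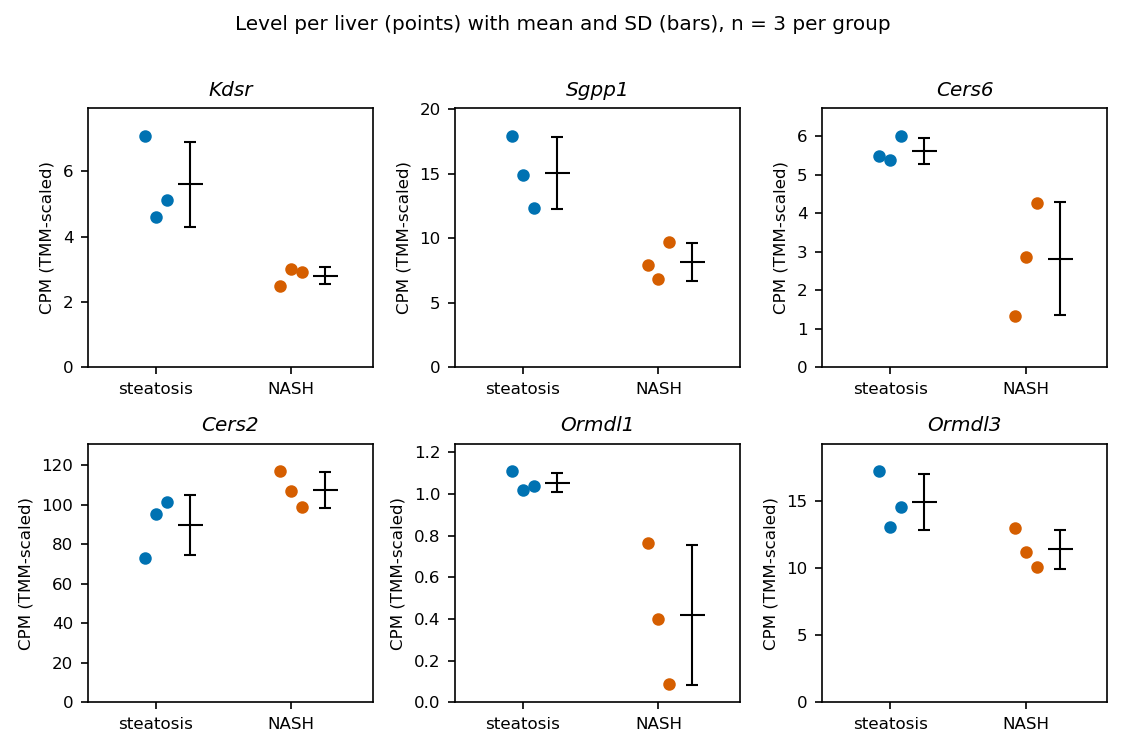
CPM (vertical axis) in each liver are shown as points for 6 members, with the mean and SD of 3 livers beside them. Kdsr, Sgpp1, Cers6, Ormdl1 and Ormdl3 have all NASH points below the steatosis points, by a small gap for Ormdl3, and Cers2 overlaps.

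Sphingomyelin synthases pass a phosphocholine head group to ceramide, in the Golgi (Sgms1) and mainly at the plasma membrane (Sgms2). Sgms1 held 3.999, 3.59 and 2.37 CPM in steatosis and 2.43, 2.27 and 2.54 CPM in NASH. Only steatosis 3 fell within the NASH range, and the log2 fold change, by a small margin the largest of this step in size, was -0.45 (95% interval -1.04 to 0.14, adjusted p = 0.348). Sgms2 overlapped between the groups (log2 fold change -0.25, 95% interval -0.78 to 0.29).

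Sphingomyelinases run the reverse reaction. Smpd4, a neutral sphingomyelinase of the endoplasmic reticulum and nuclear envelope, held 10.5, 11.5 and 13.1 CPM in steatosis and 17.8, 17.1 and 12.97 CPM in NASH. NASH 1 and 2 lay above all steatosis livers and NASH 3 within them, and its log2 fold change of 0.44 did not pass (SE 0.19, 95% interval 0.02 to 0.87, adjusted p = 0.201). Smpd1, the acid sphingomyelinase of the lysosome, held 4.15 ± 1.10 and 4.09 ± 0.706 CPM, in steatosis and NASH (SD, n = 3 each). Smpd2, a neutral enzyme, had the highest level of the 4 per length, with 19.2, 25.3 and 24.4 CPM in steatosis and 16.9, 23.9 and 29.5 CPM in NASH, which lay on both sides of the steatosis range. For Smpd1 and Smpd2 the 95% intervals of the log2 fold change, -0.60 to 0.52 and -0.49 to 0.54, exclude a 2-fold change either way. Smpd2 overlaps Mical1 on the opposite strand over 20.3% of its exon length. Smpd3, a neutral enzyme tied to exosome release, had 17 counts in each group, a scaled ratio of 1.48 (exact 95% counting interval 0.712 to 3.09). Of the 5 tested sphingomyelin genes 0 passed edgeR's test, with 1 (Smpd4) at an unadjusted p under 0.05, and DESeq2 and limma-voom called 0.

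Of the 3 genes around glycosphingolipids and ceramide phosphate 0 passed, 0 had an unadjusted p under 0.05, and DESeq2 and limma-voom called 0. Ugcg, which attaches glucose to ceramide and so opens the glycosphingolipid branch, held 1.600, 1.98 and 2.78 CPM in steatosis and 2.43, 2.14 and 2.54 CPM in NASH. The NASH values all fell inside the steatosis range (log2 fold change 0.14, 95% interval -0.49 to 0.76). Cerk, the ceramide kinase, held 2.461, 1.496 and 1.742 CPM in steatosis and 2.22, 2.61 and 1.72 CPM in NASH. The ranges overlapped, with a log2 fold change of 0.22 (95% interval -0.44 to 0.88). Galc, the lysosomal enzyme that removes galactose from galactosylceramide, had one of -0.08, with the widest interval of the 3 (-0.98 to 0.82).

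Ceramidases release sphingosine at acid (Asah1), neutral (Asah2) and alkaline pH (Acer1, Acer2 and Acer3). Asah1 was steady in steatosis at 2.15, 2.15 and 2.22 CPM and held 2.08, 2.81 and 1.45 CPM in NASH, with NASH livers on both sides (log2 fold change -0.03, 95% interval -0.66 to 0.61). Acer2, the Golgi enzyme, was the gene of this step with most counts. It held 6.52, 2.81 and 6.00 CPM in steatosis and 4.72, 7.62 and 6.80 CPM in NASH, with steatosis 2 the lowest (log2 fold change 0.31, adjusted p = 0.592). Acer3 had the largest estimate of the step, with 2.28, 3.35 and 2.37 CPM in steatosis against 2.50, 1.20 and 1.63 CPM in NASH. NASH 1 lay within the steatosis range, and the log2 fold change of -0.57 did not pass (SE 0.32, adjusted p = 0.317). Asah2 overlapped as well (log2 fold change -0.25, 95% interval -1.14 to 0.64). Acer1, an enzyme of skin, had 0 counts in all 6 libraries. None of the 4 tested ceramidase genes passed, at an unadjusted p under 0.05 there were 0, and DESeq2 and limma-voom called 0.

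Sphingosine is phosphorylated by the kinases Sphk1 and Sphk2, returned to sphingosine by the phosphatase Sgpp1 and cleaved for good by the lyase Sgpl1. Sgpp1 held 17.9, 14.9 and 12.3 CPM in steatosis 1 to 3 and 7.91, 6.82 and 9.70 CPM in NASH 1 to 3. Every NASH liver lay below every steatosis liver, with a gap between steatosis 3 and NASH 3. The mean fell from 15.04 ± 2.80 to 8.15 ± 1.45 CPM (SD, n = 3 each), a log2 fold change of -0.89 (SE 0.22, 95% interval -1.36 to -0.41, edgeR adjusted p = 0.0458). It rests on 872 counts over steatosis and 323 over NASH, and the gene (ENSMUSG00000021054, chromosome 12, 75714249 to 75735729, GRCm38) shares no exon position with another. The call held without steatosis 3 (edgeR adjusted p = 0.0439). It was lost without steatosis 1 or 2 (0.167 and 0.132) or NASH 1, 2 or 3 (0.116, 0.136 and 0.0592). The log2 fold change lay between -1.02 and -0.73. Over all genes the fit without steatosis 3 called 468 and the others 114 to 226, against 548 in the main fit.

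Neither kinase moved past the test. Sphk2, the nuclear and mitochondrial kinase, took 94.99% to 97.3% of the summed kinase level per length in steatosis and 96.9% to 98.2% in NASH. It held 18.5, 14.9 and 18.6 CPM in steatosis and 19.2, 21.9 and 12.6 CPM in NASH (log2 fold change 0.05, 95% interval -0.45 to 0.56). Its exons overlap those of the clock output gene Dbp on the opposite strand over 12.96% of their length. Dbp itself ranged from 3.08 to 22.9 CPM over the 6 livers, without separating the groups. A further 8.97% overlaps the ribosomal protein gene Rpl18 on that strand, which held 1.54, 1.98 and 1.30 CPM in steatosis and 1.11, 0.736 and 0.997 CPM in NASH. Those Rpl18 values did not overlap between the groups (log2 fold change -0.75, adjusted p = 0.219). Sphk1, the cytosolic kinase, had 47 and 22 summed counts (log2 fold change -0.58, 95% interval -1.58 to 0.42). Sgpl1 held 14.6, 15.1 and 13.4 CPM in steatosis and 22.1, 14.2 and 12.7 CPM in NASH, with NASH 1 the highest (log2 fold change 0.19, adjusted p = 0.67). Among the 4 genes of this step, then, 1 was lower and 0 higher.

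A further 49 genes of the pathway, listed in addition to the members with earlier results of these data known, were read from the same fit. Of these 31 were tested, 2 were lower in NASH and 0 higher by edgeR (6.45%, against the 4.82% of all genes). DESeq2 and limma-voom each called 3. At an unadjusted p under 0.05 there were 11 (35.5%, against 23.2% of all genes), and for 9 every NASH liver lay below every steatosis liver (29.0%, against 16.2%). The median log2 fold change was -0.12. The largest change was in Aldh3a2, the fatty aldehyde dehydrogenase that oxidizes the aldehyde released by the sphingosine phosphate lyase as well as aldehydes from other lipids. It held 155, 117 and 86.4 CPM in steatosis and 42.8, 39.5 and 30.2 CPM in NASH. Every NASH liver lay below every steatosis liver, and on the log2 scale the difference was -1.67 (SE 0.27, adjusted p = 0.0121 in edgeR). The Aldh3a2 call held in each fit with 1 library left out (adjusted p = 0.0111 to 0.0475) but not in the 4 libraries with few rRNA-like reads (0.114).

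The other called gene was Gltpd2, which encodes a protein with a glycolipid transfer domain. It held 18.4, 20.3 and 19.7 CPM in steatosis and 12.6, 8.36 and 12.2 CPM in NASH, again without overlap (log2 fold change -0.81, SE 0.20, edgeR adjusted p = 0.0484). It did not pass in any edgeR fit with 1 library left out (adjusted p = 0.0795 to 0.155), where 114 to 468 genes were called in all. Of the 7 tested genes of synthesis and transfer it was the only one called. Col4a3bp, the ceramide transfer protein that carries ceramide to the Golgi, had a log2 fold change of -0.08 (95% interval -0.50 to 0.33).

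In glycosphingolipid synthesis 0 of 5 tested genes passed edgeR's test, 3 had an unadjusted p under 0.05, and DESeq2 and limma-voom called 0. The smallest p was that of B4galt5, a lactosylceramide synthase, with 3.08, 8.08 and 8.38 CPM in steatosis and 14.9, 12.3 and 10.5 CPM in NASH. All NASH livers lay above the steatosis livers, of which steatosis 1 was the lowest (log2 fold change 0.94, SE 0.33, adjusted p = 0.119). The others at an unadjusted p under 0.05, Gal3st1 and St3gal5, had estimates below 0. Their log2 fold changes were -1.21 and -1.29 (edgeR adjusted p = 0.152 and 0.159), and only Gal3st1 was lower in every NASH liver. In breakdown 0 of 10 tested genes passed and 2 had an unadjusted p under 0.05. Psap, the precursor of the saposins that present sphingolipids to lysosomal enzymes, held 85.8, 72.6 and 64.4 CPM in steatosis and 42.6, 44.1 and 45.6 CPM in NASH. The groups did not overlap, and the log2 fold change of -0.75 missed the threshold in edgeR (SE 0.21, adjusted p = 0.0681) but passed in DESeq2 (0.0202) and limma-voom (0.0483). Among 9 tested genes that handle sphingosine phosphate, 1 was lower, Aldh3a2, and 0 were higher.

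**Figure D5:**
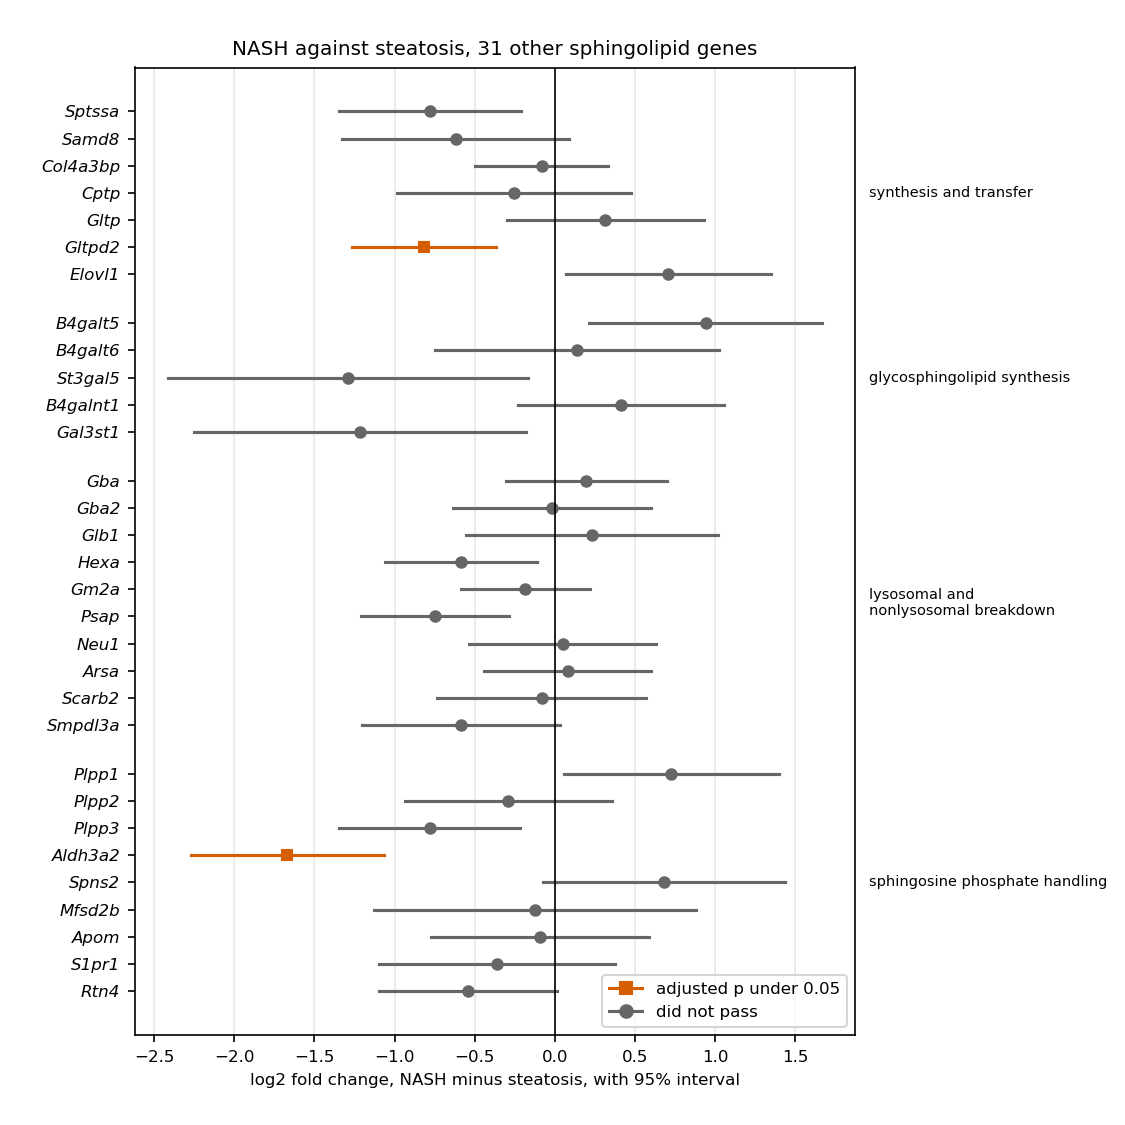
The log2 fold change of NASH minus steatosis (horizontal axis) with its 95% interval is drawn for the 31 other tested sphingolipid genes (vertical axis), grouped by role. Orange squares mark Gltpd2 and Aldh3a2, which passed at an adjusted p under 0.05, and grey circles mark the 29 that did not.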

How the data were processed

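RNA from liver was sequenced as polyA+ libraries with paired 150 bp reads, per the labels' protocols. The submitters' processing notes name TopHat2, HTSeq and mm10 (GRCm38). No source used here gives tool versions, the strand setting or the annotation release. Each file deposited by the authors lists raw read counts for Ensembl genes, without normalization. Symbols were found for 37607 of 39179 identifiers, and the others held at most 0.119% of a library. Exon lengths and overlaps came from GENCODE M21 (GRCm38), promoters from RefSeq (GRCm38.p6, found for 30 of 32 members).

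Counts were filtered with edgeR's default filter, scaled by TMM and tested, NASH against steatosis, with the quasi-likelihood test of edgeR 4.0.16 in R 4.3.3, with Benjamini-Hochberg adjustment over all 11375 tested genes. The SE was taken from the fold change and the F statistic, an approximation, and 95% intervals from this SE and the test's degrees of freedom. The test was checked on simulated data. Alternatives were DESeq2 1.42.0, limma-voom (limma 3.58.1), other scalings and filters, the replicate number as a block and each library left out. A fit without mitochondrial and rRNA-like genes and one on the 4 libraries with few rRNA-like reads were added after seeing the data. The members were given as a list, and the other genes and the markers were chosen. Earlier results of these data were known. Values per library are given for members that were called, had the largest change of their step or stood highest in their family, and, of the other genes, for those called or with the smallest p of their list. Of the members 14 share exon positions with another gene, 13 of these with one on the opposite strand.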

Additional observations from a re-analysis of the deposited data

How the results depend on the processing

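Both called members stood close to the threshold. The number of members called went from 2 to 1 with limma-voom (Sgpp1), DESeq2 size factors in edgeR (Kdsr) or upper-quartile factors (Sgpp1), and to 0 when library sizes were the counts outside mitochondrial and rRNA-like genes, without TMM, with the replicate block, and in the 4 libraries with few rRNA-like reads. With 1 library left out it was 0 to 1. It was 2 in DESeq2, with the stricter filter (CPM of at least 1 in 3 libraries) and without mitochondrial and rRNA-like genes, and 3 without a filter, with Cers6 added. All of these calls were lower in NASH. Of the other sphingolipid genes, the 2 calls became 3 with DESeq2 and with limma-voom (Psap added), 1 with DESeq2 size factors, upper-quartile factors, the scaling without TMM, the replicate block or any 1 library left out, 0 in the 4 libraries with few rRNA-like reads, and 7 without a filter, where 6 were lower and 1 higher. The calls over all tested genes also differed between the fits. They were 548 of 11375 in the main fit, 841 of 11375 in DESeq2 and 528 of 11375 in limma-voom. Without a filter they were 1447 of 19803, and with the stricter filter 553 of 10310. DESeq2 size factors gave 504, upper-quartile factors 526 and the scaling without TMM 400. With 1 library left out there were 114 to 468, and in the 4 libraries 36. Fits on fewer libraries hold less information, and the cause of these differences was not tested for any setting. Kdsr and Sgpp1 kept their direction in each alternative run. The scaling without TMM shifted the median over all genes from 0.01 to 0.12 (log2), and the split of all calls from 169 higher and 379 lower to 178 higher and 222 lower. Relative to the median, Kdsr then stood at -0.99 (-1.001 with TMM) and Sgpp1 at -0.89 (-0.89). Members near 0 changed sign. Asah1 became 0.015 with upper-quartile factors, Smpd1 0.048, Galc 0.010 and Asah1 0.088 with the scaling without TMM, and Smpd2 -0.0074 without a filter. In the 4 libraries with few rRNA-like reads Cers5 became 0.0074, Smpd2 -0.095, Asah1 0.16 and Acer2 -0.018. With 1 library left out the log2 fold change ran from -0.33 to 0.059 for Cers4, -0.30 to 0.035 for Cers5, -0.18 to 0.23 for Smpd1, -0.16 to 0.22 for Smpd2, -0.011 to 0.42 for Ugcg, -0.43 to 0.33 for Galc, -0.27 to 0.18 for Asah1, -0.52 to 0.13 for Asah2, -0.10 to 0.26 for Sphk2 and -0.094 to 0.35 for Sgpl1.

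The replicate numbers share no stated origin. Deviations of same-numbered libraries correlated at 0.035, -0.012 and 0.071 across genes, so the numbers were not taken as pairs. With the replicate block 466 genes were called over all, against 548. Of the members 5 did not pass the filter on low counts and were not tested. Among the tested members the intervals of Ormdl1, Ormdl2 and Sphk1 were the widest (SE 0.51, 0.46 and 0.45). Their summed counts in steatosis and NASH were 63 and 18, 34 and 40, and 47 and 22. Cers5, with 49 and 30 counts, had an SE of 0.38. What set these widths was not tested.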

Other observations

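St3gal5, which adds sialic acid to lactosylceramide and so opens the ganglioside branch, was singled out after its values were seen. It held 83.2, 25.7 and 20.5 CPM in steatosis 1 to 3 and 10.9, 26.4 and 15.3 CPM in NASH 1 to 3. Steatosis 1 stood far above the other 5 livers, which overlapped between the groups. The log2 fold change of -1.29 did not pass (edgeR adjusted p = 0.159, SE 0.51). Without steatosis 1 it was -0.38, and over the alternatives the adjusted p ran from 1.9e-05, without a filter on low counts, to 0.615, without steatosis 1.

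Receptors for sphingosine 1-phosphate were sparsely read. Of the 5 receptor genes S1pr1, the endothelial form, was the only one that passed the filter on low counts, with 3.28 ± 1.37 CPM in steatosis and 2.58 ± 0.593 CPM in NASH (SD, n = 3 each, log2 fold change -0.36, edgeR adjusted p = 0.553). S1pr4, of blood cells, had 10 counts over steatosis and 0 over NASH, where 0 allows up to 3 counts. Its scaled ratio of NASH over steatosis had an exact 95% counting interval of 0 to 0.662, which leaves out no change but covers counting error alone. S1pr4 is 1 of 18 other sphingolipid genes with too few counts to test. Among these, Neu3, with 26 and 7 counts, also had an interval that left out no change (0.146 to 0.945), again for counting error alone. Its livers overlapped between the groups, with 0.246, 0.419 and 0.556 CPM in steatosis and 0.278, 0.201 and 0 CPM in NASH.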
